A study of Mus musculus with 18 samples.

Results

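The p53 module described here holds 33 genes: *Trp53* itself, its inhibitors *Mdm2* and *Mdm4*, and 30 genes that p53 is known to switch on or that act beside it after DNA damage. The members were given by name, with earlier results of these data known, so the list is not independent of them. Each of the 33 was found by its symbol among the 55487 genes in the deposited tables. The libraries are bulk RNA from the subcutaneous white adipose tissue (sWAT) and the brown adipose tissue (BAT) of male mice after a 4 h fast, with 1 mouse per library. Ctrl mice are *Csn8* f/f littermates, which carry the floxed allele and no loss of the gene. *Csn8* AKO mice carry the same floxed alleles together with Cre under the adiponectin promoter, which removes exons 4 to 6 of *Csn8* in adipocytes. sWAT was taken at 12 weeks from 4 mice per genotype and BAT at 4 weeks from 5 mice per genotype. Strain is not stated in the sources used. Macrophages, vessels, fibroblasts and other cells of the depot keep an intact gene, so the values mix cells with and without it, and tissue and age cannot be told apart.

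p53 is a transcription factor that is made all the time and destroyed all the time: Mdm2 attaches ubiquitin to it, and Mdm4 masks its activation domain. DNA damage, ribosome stress and other insults break that hold, p53 accumulates, and it raises genes for cell cycle arrest, cell death, DNA repair and metabolic adjustment, *Mdm2* among them, which closes a feedback loop. Because much of the control is on the protein, the mRNA of the targets is the usual readout of the pathway rather than *Trp53* mRNA. The COP9 signalosome, to which Csn8 belongs, strips the ubiquitin-like protein Nedd8 from cullin ubiquitin ligases.

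The total count per library ran from 16370789 to 22469969 in sWAT Ctrl, 15835721 to 23109603 in sWAT *Csn8* AKO, 44065520 to 66719937 in BAT Ctrl and 26658593 to 65359211 in BAT *Csn8* AKO. These totals include ribosomal RNA genes, which took 2.38, 18.2, 19.8 and 1.80% of sWAT Ctrl libraries 1 to 4, 3.96, 4.83, 31.8 and 47.8% of sWAT *Csn8* AKO libraries 1 to 4, 10.1, 3.70, 0.863, 2.01 and 0.962% of BAT Ctrl libraries 1 to 5 and 2.42, 15.1, 4.10, 1.06 and 1.37% of BAT *Csn8* AKO libraries 1 to 5. Levels below are CPM, the counts of a gene relative to the library's scaled total, with factors from the trimmed mean of M values (TMM) within a tissue, and means are given ± SD with n = 4 per group in sWAT and n = 5 in BAT. The targeted gene, listed under the symbol *Cops8* (ENSMUSG00000034432), was at 33.9, 36.2, 34.8 and 35.0 CPM in sWAT Ctrl and 33.0, 29.2, 30.7 and 36.0 CPM in sWAT *Csn8* AKO, and at 36.5, 39.0, 40.1, 37.1 and 44.6 CPM in BAT Ctrl and 28.2, 29.7, 34.5, 31.4 and 36.9 CPM in BAT *Csn8* AKO. Means were 35.0 ± 0.911 (mean ± SD, n = 4) against 32.2 ± 2.99 CPM in sWAT (log2 fold change -0.12, SE 0.11, edgeR adjusted p = 0.623) and 39.4 ± 3.22 (n = 5) against 32.1 ± 3.56 CPM in BAT (log2 fold change -0.30, SE 0.09, edgeR adjusted p = 0.0211). *Cops8* was lower in BAT by this test and did not pass it in sWAT. Its count also covers exons that are not deleted and RNA from other cells, so it checks the labels only in part.

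Several libraries stand apart from their groups. In sWAT, Ctrl library 1 and *Csn8* AKO library 2 carried far more B and T cell RNA than the rest: the summed level of 13 lymphocyte markers was 418, 12.9, 12.8 and 29.1 CPM in Ctrl and 43.6, 759, 13.0 and 17.9 CPM in *Csn8* AKO. In BAT, *Csn8* AKO libraries 1 and 5 carried skeletal muscle RNA that the other BAT libraries lacked: the summed level of 8 muscle markers was 0.776, 1.12, 0.807, 0.461 and 1.35 CPM in Ctrl and 114, 1.06, 2.20, 1.86 and 207 CPM in *Csn8* AKO. Counts of members are therefore given with and without those pairs, an alternative chosen after seeing the data.

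In BAT a large share of the module passed the test. Of the 33 members, tested in BAT without exception, 14 were higher in *Csn8* AKO and 2 lower at an edgeR adjusted p under 0.05, against 16.0% and 15.8% of the 22345 genes tested. With a log2 fold change of at least 1 as well, 6 members were higher, against 6.85% of genes, and 0 lower, against 4.16%. Without the fold rule, 5 members lay lower at an unadjusted p under 0.05, against 4619 of 22345 genes. DESeq2 and limma voom called 3 and 5 lower without that rule, against 3947 of 26822 and 4507 of 22345 genes. The higher members include the p53 gene, its ligase *Mdm2*, 6 of 9 cell cycle genes and 4 of 8 death and survival genes. All 5 *Csn8* AKO libraries lay above all 5 Ctrl libraries for 7 members (*Mdm2*, *Zmat3*, *Aen*, *Gadd45a*, *Gadd45b*, *Gtse1* and *Psrc1*; 10.1% of genes) and below them for 2 (*Rrm2b* and *Abhd4*; 10.9% of genes). The median log2 fold change of the members was 0.46, that of all genes tested 0.006. With the muscle-bearing *Csn8* AKO libraries 1 and 5 left out, 12 members were called higher, *Gadd45g* and *Dcxr* no longer among them, and 4 lower, with *Ddb2* (-0.56, SE 0.13, adjusted p = 0.00789) and *Ak1* (-0.50, SE 0.16, adjusted p = 0.0444) added. That fit called 2560 of 23109 genes higher and 2743 lower. In 1 fit of all 4 groups BAT had 10 higher members, without *Trp53*, *Gadd45g*, *Rps27l*, *Dcxr* and *Epha2* and with *Plk3*, against 2583 of 22509 genes. The count of lower members was 4 without Ctrl library 5 (against 3453 of 22821 genes) and 5 without *Csn8* AKO library 1 (against 3428 of 22647), and 2 with any other single library left out.

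sWAT gave 1 called member. Of 33 tested, only *Trp53inp1* was higher by edgeR, against 2.30% of the 18843 genes tested, and 0 were lower, against 3.00%. Unadjusted p was under 0.05 for 12 members that lay higher, against 1862 of the 18843 genes, and 2 that lay lower, against 1976. DESeq2 called 3 higher (*Trp53inp1*, *Aen*, *Psrc1*) and limma voom 5 (these and *Ccng1*, *Zmat3*), against 846 of 20788 and 1077 of 18843 genes, with 0 lower by either tool. In 1 fit of all 4 groups edgeR called 4 members higher in sWAT, *Mdm2*, *Zmat3*, *Aen* and *Psrc1*, and not *Trp53inp1*, against 1044 of 22509 genes. No member passed with the fold rule as well, which 1.41% of genes passed as higher and 1.91% as lower. *Csn8* AKO libraries lay wholly above Ctrl for 6 members (*Mdm2*, *Trp53inp1*, *Zmat3*, *Aen*, *Gtse1*, *Psrc1*; 5.80% of genes) and wholly below for *Rrm2b* (8.23% of genes). The median log2 fold change was 0.11 over the members and 0.03 over all genes tested. Without Ctrl library 1 and *Csn8* AKO library 2, the lymphocyte-rich pair, edgeR called 4 members higher: *Trp53inp1* (0.60, SE 0.14, adjusted p = 0.0239), *Ccng1* (0.58, SE 0.14, adjusted p = 0.0314), *Aen* (0.57, SE 0.15, adjusted p = 0.0375) and *Rps27l* (0.75, SE 0.19, adjusted p = 0.0349). That fit called 993 of 18547 genes higher, against 434 of 18843 with all libraries. The sWAT count depends on single libraries: it was 0 without Ctrl library 1, 2, 3 or 4 or *Csn8* AKO library 3, 1 without *Csn8* AKO library 1 (*Plk3* in place of *Trp53inp1*) or 4, and 4 without *Csn8* AKO library 2. Over all genes, higher calls numbered 377, 179, 177 and 183 without Ctrl libraries 1 to 4. They numbered 215, 804, 147 and 391 without *Csn8* AKO libraries 1 to 4. A fold change for bulk tissue cannot separate fewer cells of a type from less RNA per cell, and this holds for each value that follows.

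**Figure D1:**
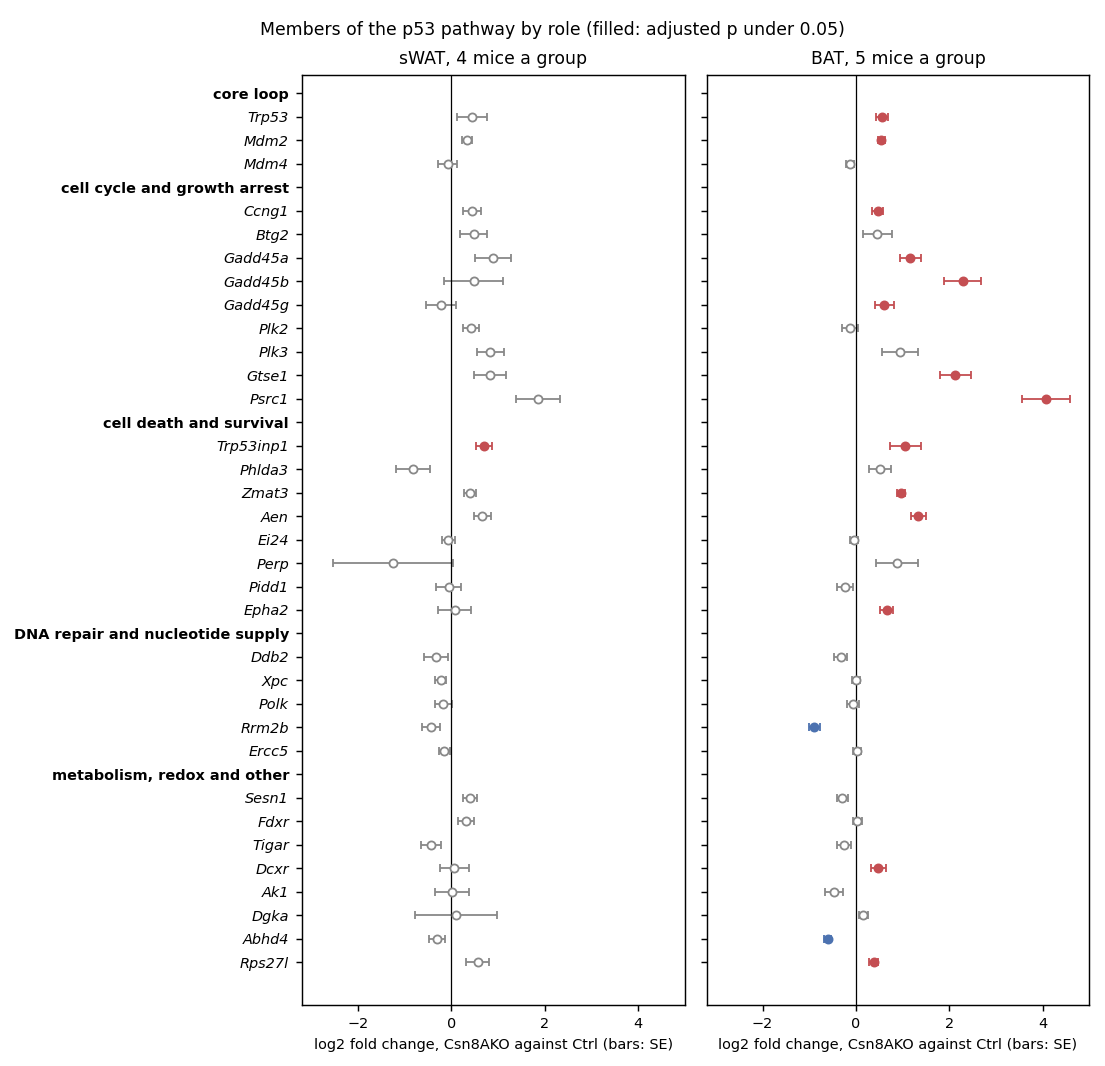
Log2 fold change of *Csn8* AKO against Ctrl (x axis, log2 units; bars are 1 SE) for the 33 members grouped by role (y axis), in sWAT with 4 mice a group and in BAT with 5. Filled points passed an adjusted p under 0.05: 1 higher in sWAT, and 14 higher and 2 lower in BAT, where *Psrc1* has the largest value, 4.07.

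In the core loop, the p53 gene and its ligase were both higher in BAT. *Trp53* (ENSMUSG00000059552, chr11:69580359-69591873) stood in BAT at 16.8, 17.8, 13.9, 15.1 and 18.8 CPM in Ctrl libraries 1 to 5 and 27.9, 17.7, 26.3, 24.4 and 25.2 CPM in *Csn8* AKO libraries 1 to 5. 4 of the 5 *Csn8* AKO libraries lay above every Ctrl library, and library 2 lay within the Ctrl range. Means were 16.5 ± 1.98 CPM in Ctrl and 24.3 ± 3.90 CPM in *Csn8* AKO (log2 fold change 0.56, SE 0.12, edgeR adjusted p = 0.00310). For sWAT the values were 35.7, 22.3, 19.3 and 22.5 CPM in Ctrl libraries 1 to 4 and 25.7, 59.6, 26.2 and 24.3 CPM in *Csn8* AKO libraries 1 to 4, where the 2 lymphocyte-rich libraries are the highest of their groups and the groups overlap. Means there were 25.0 ± 7.29 CPM in Ctrl and 33.9 ± 17.1 CPM in *Csn8* AKO (log2 fold change 0.44, SE 0.32, edgeR adjusted p = 0.501). The sWAT value rests on *Csn8* AKO library 2: the log2 fold change is 0.03 without it, 0.67 without Ctrl library 1 and 0.25 without both.

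*Mdm2* (ENSMUSG00000020184, chr10:117688875-117710758), which encodes the ligase for p53 and is itself a p53 target, kept its groups apart in both tissues. BAT levels of *Mdm2* were 36.9, 39.0, 35.8, 39.8 and 40.8 CPM in Ctrl libraries 1 to 5 and 52.2, 54.0, 64.9, 57.1 and 51.7 CPM in *Csn8* AKO libraries 1 to 5. The lowest *Csn8* AKO library is above the highest Ctrl library by more than the Ctrl range. Means were 38.4 ± 2.06 CPM in Ctrl and 56.0 ± 5.42 CPM in *Csn8* AKO (log2 fold change 0.54, SE 0.08, edgeR adjusted p = 0.000158). sWAT levels of *Mdm2* were 33.4, 33.2, 33.2 and 31.9 CPM in Ctrl libraries 1 to 4 and 40.3, 44.1, 37.6 and 44.6 CPM in *Csn8* AKO libraries 1 to 4. No values overlap in sWAT either, although edgeR made a call only in the fit of all 4 groups: 32.9 ± 0.662 CPM in Ctrl and 41.6 ± 3.33 CPM in *Csn8* AKO (log2 fold change 0.34, SE 0.11, edgeR adjusted p = 0.109).

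*Mdm4* (ENSMUSG00000054387, chr1:132959484-133030561), the relative of Mdm2 that masks p53, did not pass the test in either tissue. BAT held *Mdm4* at 92.5, 96.1, 90.3, 97.8 and 82.1 CPM in Ctrl libraries 1 to 5 and 96.9, 85.5, 83.0, 77.8 and 75.6 CPM in *Csn8* AKO libraries 1 to 5, and the ranges overlap. Means were 91.8 ± 6.13 CPM in Ctrl and 83.8 ± 8.34 CPM in *Csn8* AKO (log2 fold change -0.13, SE 0.08, edgeR adjusted p = 0.253). In sWAT *Mdm4* stood at 126, 93.1, 112 and 118 CPM in Ctrl libraries 1 to 4 and 98.0, 156, 80.9 and 92.8 CPM in *Csn8* AKO libraries 1 to 4. Here *Csn8* AKO library 2 is far above its group and the ranges overlap (112 ± 14.1 CPM in Ctrl and 107 ± 33.4 CPM in *Csn8* AKO; log2 fold change -0.07, SE 0.20, edgeR adjusted p = 0.892). The log2 fold change in sWAT is 0.03 without *Csn8* AKO library 3 and -0.31 without *Csn8* AKO library 2. Per kilobase of the deposited gene length, which need not be that of a transcript, Ctrl levels of the 3 genes were of the same order: in BAT 4.07, 7.56 and 6.20 CPM per kb for *Trp53*, *Mdm2* and *Mdm4*, and in sWAT 6.17, 6.48 and 7.59 CPM per kb.

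The cell cycle and growth arrest genes gave the most calls: 6 of 9 were higher in BAT, against 16.0% of all genes tested. In each tissue 8 of 9 had a positive log2 fold change, against 53.3% of genes in sWAT and 50.5% in BAT. That of *Btg2* in BAT turns to -0.05 without the muscle-bearing *Csn8* AKO libraries 1 and 5. *Psrc1* (ENSMUSG00000068744, chr3:108383839-108388231), a microtubule protein of the mitotic spindle, was nearly silent in BAT of Ctrl mice, with 0, 0.186, 0.0645, 0.166 and 0.108 CPM in Ctrl libraries 1 to 5 and 3.71, 1.89, 0.928, 1.505 and 1.27 CPM in *Csn8* AKO libraries 1 to 5. Each *Csn8* AKO library is above each Ctrl library, with 30 reads over the Ctrl group and 443 over the *Csn8* AKO group, so the size of the ratio rests on few Ctrl reads. Means were 0.105 ± 0.0759 CPM in Ctrl and 1.86 ± 1.09 CPM in *Csn8* AKO (log2 fold change 4.07, SE 0.51, edgeR adjusted p = 6.83e-05). sWAT showed *Psrc1* at 0.498, 0.506, 0.118 and 0.883 CPM in Ctrl libraries 1 to 4 and 1.94, 1.45, 2.55 and 1.496 CPM in *Csn8* AKO libraries 1 to 4. The groups are apart there too, and the edgeR p just missed the threshold: 0.501 ± 0.312 CPM in Ctrl and 1.86 ± 0.512 CPM in *Csn8* AKO (log2 fold change 1.86, SE 0.48, edgeR adjusted p = 0.0515).

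*Gtse1* (ENSMUSG00000022385, chr15:85859745-85876573), a microtubule-associated protein that also escorts p53 out of the nucleus, was likewise low and higher in *Csn8* AKO. Its BAT levels were 0.776, 0.542, 0.807, 0.959 and 0.433 CPM in Ctrl libraries 1 to 5 and 5.90, 1.81, 2.61, 2.68 and 2.14 CPM in *Csn8* AKO libraries 1 to 5. *Csn8* AKO library 1, 1 of the 2 with muscle RNA, is far above the rest of its group, and the other 4 still clear the Ctrl range. Means were 0.703 ± 0.213 CPM in Ctrl and 3.03 ± 1.65 CPM in *Csn8* AKO (log2 fold change 2.13, SE 0.33, edgeR adjusted p = 0.000282), and the value was 1.76, SE 0.27, adjusted p = 0.000658 without *Csn8* AKO libraries 1 and 5. sWAT levels of *Gtse1* were 1.40, 1.42, 1.36 and 0.831 CPM in Ctrl libraries 1 to 4 and 1.99, 1.81, 1.65 and 3.51 CPM in *Csn8* AKO libraries 1 to 4. They do not overlap, but the difference did not pass the test: 1.25 ± 0.283 CPM in Ctrl and 2.24 ± 0.859 CPM in *Csn8* AKO (log2 fold change 0.83, SE 0.34, edgeR adjusted p = 0.199).

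The 3 Gadd45 proteins sense stress and relay it to the MTK1 kinase, and each was higher in BAT. *Gadd45a* (ENSMUSG00000036390, chr6:67035096-67037457) overlaps exons of *E230016M11Rik* on the other strand. Strand use in counting is not stated, and the effect of the overlap was not tested. BAT levels of *Gadd45a* were 2.33, 1.20, 1.58, 1.14 and 1.496 CPM in Ctrl libraries 1 to 5 and 3.00, 2.44, 4.43, 4.17 and 3.21 CPM in *Csn8* AKO libraries 1 to 5, with no overlap between groups. Means were 1.55 ± 0.472 CPM in Ctrl and 3.45 ± 0.831 CPM in *Csn8* AKO (log2 fold change 1.17, SE 0.22, edgeR adjusted p = 0.00127). In sWAT *Gadd45a* was at 1.63, 3.65, 3.44 and 1.87 CPM in Ctrl libraries 1 to 4 and 3.75, 2.72, 7.72 and 5.61 CPM in *Csn8* AKO libraries 1 to 4, where *Csn8* AKO library 2 lies inside the Ctrl range (2.64 ± 1.04 CPM in Ctrl and 4.95 ± 2.20 CPM in *Csn8* AKO; log2 fold change 0.90, SE 0.39, edgeR adjusted p = 0.224).

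*Gadd45b* (ENSMUSG00000015312, chr10:80930073-80932204), of the same family, had BAT levels of 2.35, 0.932, 0.726, 1.03 and 0.739 CPM in Ctrl libraries 1 to 5 and 3.09, 6.62, 2.92, 7.03 and 8.12 CPM in *Csn8* AKO libraries 1 to 5. Ctrl library 1 stands well above the other Ctrl libraries and is still below every *Csn8* AKO library. Means were 1.16 ± 0.681 CPM in Ctrl and 5.56 ± 2.39 CPM in *Csn8* AKO (log2 fold change 2.29, SE 0.40, edgeR adjusted p = 0.00102). sWAT values for *Gadd45b* were 14.3, 4.30, 2.49 and 2.08 CPM in Ctrl libraries 1 to 4 and 4.17, 13.3, 8.48 and 6.58 CPM in *Csn8* AKO libraries 1 to 4. The 2 lymphocyte-rich libraries are the highest of their groups, and the groups overlap with or without them: 5.78 ± 5.73 CPM in Ctrl and 8.12 ± 3.85 CPM in *Csn8* AKO (log2 fold change 0.49, SE 0.63, edgeR adjusted p = 0.730). Without both libraries the sWAT value was 1.11, SE 0.35, adjusted p = 0.0740.

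Among the other 5 genes of this role, BAT called *Gadd45g* (0.61, SE 0.20, adjusted p = 0.0333) and *Ccng1* (cyclin G1, which steers a phosphatase to Mdm2; 0.47, SE 0.12, adjusted p = 0.00651) higher. The *Gadd45g* call is lost, with adjusted p from 0.0553 to 0.0770, without any 1 of Ctrl libraries 1 to 4 or *Csn8* AKO libraries 2, 4 or 5. Neither gene's groups are apart, since 1 or more *Csn8* AKO libraries of each lie within the Ctrl range. *Btg2*, a brake on proliferation that also speeds mRNA decay, and the polo-like kinases *Plk2* and *Plk3* did not pass edgeR, with log2 fold changes of 0.46, -0.13 and 0.95 in BAT. *Plk3* was called higher there by limma voom, in 1 fit of all 4 groups and without Ctrl library 5. In sWAT the same 5 genes ranged from -0.22 (*Gadd45g*) to 0.84 (*Plk3*), none called by edgeR, 3 of them (*Ccng1*, *Plk2*, *Plk3*) at an unadjusted p under 0.05, and *Ccng1* called by limma voom.

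Of the 8 death and survival genes, edgeR called 4 higher in BAT (against 16.0% of all genes tested) and 1 in sWAT (against 2.30%). *Aen* (ENSMUSG00000030609, chr7:78895854-78911209), a nuclease that helps cut DNA in dying cells, rose clearly in BAT: 8.92, 12.9, 12.9, 16.0 and 14.6 CPM in Ctrl libraries 1 to 5 and 26.0, 28.5, 42.2, 35.9 and 33.0 CPM in *Csn8* AKO libraries 1 to 5. Every *Csn8* AKO library is above every Ctrl library. Means were 13.1 ± 2.65 CPM in Ctrl and 33.1 ± 6.35 CPM in *Csn8* AKO (log2 fold change 1.34, SE 0.16, edgeR adjusted p = 3.63e-05). In sWAT *Aen* stood at 17.7, 14.9, 14.0 and 13.9 CPM in Ctrl libraries 1 to 4 and 18.6, 32.6, 23.3 and 21.8 CPM in *Csn8* AKO libraries 1 to 4. The groups do not overlap, the nearest being *Csn8* AKO library 1 and Ctrl library 1: 15.1 ± 1.77 CPM in Ctrl and 24.1 ± 6.01 CPM in *Csn8* AKO (log2 fold change 0.67, SE 0.19, edgeR adjusted p = 0.0695).

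*Trp53inp1* (ENSMUSG00000028211, chr4:11156431-11174379), a stress protein of p53 complexes and autophagy, was the only member called in both tissues by edgeR as reported. DESeq2 also called *Aen* and *Psrc1* in both, and limma voom these with *Ccng1* and *Zmat3*. In 1 fit of all 4 groups edgeR called *Mdm2*, *Zmat3*, *Aen* and *Psrc1* in both, and *Trp53inp1* in BAT alone. sWAT levels of *Trp53inp1* were 36.2, 27.8, 31.6 and 35.4 CPM in Ctrl libraries 1 to 4 and 51.8, 71.3, 46.2 and 45.0 CPM in *Csn8* AKO libraries 1 to 4. No *Csn8* AKO library falls into the Ctrl range, and *Csn8* AKO library 2 is the highest. Means were 32.7 ± 3.90 CPM in Ctrl and 53.6 ± 12.2 CPM in *Csn8* AKO (log2 fold change 0.71, SE 0.17, edgeR adjusted p = 0.0386). That call is lost, with adjusted p from 0.0549 to 0.124, without any 1 of Ctrl libraries 1 to 4 or *Csn8* AKO libraries 1 or 3, and it is also lost with library size alone as scaling and in 1 fit of all 4 groups. BAT levels of *Trp53inp1* were 30.9, 22.3, 35.2, 35.5 and 24.7 CPM in Ctrl libraries 1 to 5 and 57.7, 121, 52.8, 45.0 and 33.7 CPM in *Csn8* AKO libraries 1 to 5. *Csn8* AKO library 2 is far above the rest of its group, and library 5 lies inside the Ctrl range. Means were 29.7 ± 6.02 CPM in Ctrl and 61.9 ± 34.0 CPM in *Csn8* AKO (log2 fold change 1.06, SE 0.33, edgeR adjusted p = 0.0349). Without *Csn8* AKO library 2 the log2 fold change is 0.67 and still called (adjusted p = 0.0140), while the call is lost, at adjusted p from 0.0546 to 0.0771, without Ctrl library 1, 2, 3 or 5 or *Csn8* AKO library 1. It is also lost without a filter on low counts.

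*Zmat3* (ENSMUSG00000027663, chr3:32334792-32366014), an RNA-binding zinc finger protein that shapes splicing downstream of p53, had the smallest adjusted p of the members in BAT. BAT levels of *Zmat3* were 21.1, 21.0, 20.5, 18.3 and 20.1 CPM in Ctrl libraries 1 to 5 and 41.6, 35.8, 42.8, 41.8 and 34.0 CPM in *Csn8* AKO libraries 1 to 5. The Ctrl values are tight, and the lowest *Csn8* AKO value is far above them. Means were 20.2 ± 1.12 CPM in Ctrl and 39.2 ± 4.02 CPM in *Csn8* AKO (log2 fold change 0.96, SE 0.09, edgeR adjusted p = 3.40e-06). sWAT levels of *Zmat3* were 38.8, 41.2, 34.1 and 36.0 CPM in Ctrl libraries 1 to 4 and 43.2, 45.2, 56.3 and 52.5 CPM in *Csn8* AKO libraries 1 to 4. Here too no values overlap, but the gap between the groups is small: 37.5 ± 3.12 CPM in Ctrl and 49.3 ± 6.14 CPM in *Csn8* AKO (log2 fold change 0.39, SE 0.13, edgeR adjusted p = 0.111).

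*Epha2*, a receptor tyrosine kinase, was the other death and survival gene called in BAT (0.66, SE 0.14, adjusted p = 0.00264) and stood at 0.08 in sWAT (SE 0.35; -0.11 without the lymphocyte-rich pair). *Phlda3*, which competes with Akt for membrane lipids, had opposite signs, -0.81, SE 0.36, adjusted p = 0.245 in sWAT and 0.51, SE 0.23, adjusted p = 0.120 in BAT. Limma voom, library size alone as scaling and the fit without Ctrl library 1 called it higher in BAT. *Perp*, a membrane protein of cell contacts, was close to the limit of detection, with Ctrl library 4 of sWAT at 4.83 CPM and the other 17 libraries at 0 to 1.10 CPM, and it was not called (-1.25 in sWAT, 0.88 in BAT). The sWAT value rests on that library and turns to 1.37 without it. *Ei24*, of the endoplasmic reticulum, and *Pidd1*, the scaffold that activates caspase-2, ranged from -0.23 to -0.04 over both tissues, with no call. *Ei24* turned to 0.02 in sWAT and 0.02 in BAT without the libraries that stand apart.

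The 5 DNA repair and nucleotide genes had 0 called higher in BAT (against 16.0% of all genes tested) and 1 called lower by edgeR (against 15.8%). *Rrm2b* (ENSMUSG00000022292, chr15:37923952-37961318) encodes the p53-induced small subunit of ribonucleotide reductase, which supplies deoxynucleotides to resting cells. BAT levels of *Rrm2b* were 21.9, 22.4, 20.1, 19.5 and 18.3 CPM in Ctrl libraries 1 to 5 and 11.1, 14.2, 10.1, 10.4 and 9.46 CPM in *Csn8* AKO libraries 1 to 5. Every *Csn8* AKO library is below every Ctrl library. Means were 20.4 ± 1.70 CPM in Ctrl and 11.0 ± 1.84 CPM in *Csn8* AKO (log2 fold change -0.89, SE 0.11, edgeR adjusted p = 5.86e-05). sWAT levels of *Rrm2b* were 18.2, 16.9, 17.1 and 19.4 CPM in Ctrl libraries 1 to 4 and 16.1, 9.10, 12.9 and 15.0 CPM in *Csn8* AKO libraries 1 to 4. They run in the same direction without overlap, and the lymphocyte-rich *Csn8* AKO library 2 is the lowest: 17.9 ± 1.17 CPM in Ctrl and 13.3 ± 3.09 CPM in *Csn8* AKO (log2 fold change -0.43, SE 0.19, edgeR adjusted p = 0.225; -0.27 without the lymphocyte-rich pair). *Gm49085* lies antisense across exons of *Rrm2b*, and its effect on the count was not tested. The damage sensors *Ddb2* and *Xpc*, the translesion polymerase *Polk* and the nuclease *Ercc5* were not called by edgeR, with log2 fold changes from -0.33 to 0.02 in BAT and from -0.32 to -0.14 in sWAT. *Ddb2* was called lower in BAT by limma voom, without *Csn8* AKO library 1 and without *Csn8* AKO libraries 1 and 5. *Acp2* overlaps *Ddb2* on the other strand.

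The remaining 8 members, for metabolism, redox balance and other tasks, were mixed. In BAT *Dcxr*, a carbonyl reductase (0.48, SE 0.16, adjusted p = 0.0299), and *Rps27l*, a relative of a ribosomal protein (0.38, SE 0.10, adjusted p = 0.00800), were higher, and *Abhd4*, a lipase for N-acyl phospholipids, was lower (-0.60, SE 0.08, adjusted p = 5.16e-05). *Abhd4* was at 117, 109.8, 118, 106 and 120.4 CPM in Ctrl libraries 1 to 5 and 82.0, 79.7, 74.8, 73.9 and 66.3 CPM in *Csn8* AKO libraries 1 to 5, so the groups lie wholly apart (given in full after its values were seen). The *Dcxr* call is lost, with adjusted p from 0.0606 to 0.0832, without any 1 of Ctrl libraries 2, 3 or 5 or *Csn8* AKO libraries 1, 4 or 5. *Rps27l* has a close copy, *Rps27*, and whether reads of the 2 were told apart was not tested. *Sesn1*, a sestrin that restrains mTORC1, was at 0.40, SE 0.16, adjusted p = 0.174 in sWAT and -0.29, SE 0.12, adjusted p = 0.0771 in BAT. It was called lower in BAT by limma voom, without Ctrl library 5 and without *Csn8* AKO library 1. *Fdxr*, *Tigar*, *Ak1* and *Dgka*, which serve electron transfer to mitochondrial P450 enzymes, control of glycolysis, adenylate balance and diacylglycerol signals, were not called by edgeR, with log2 fold changes from -0.47 (*Ak1*) to 0.16 (*Dgka*) in BAT and from -0.43 (*Tigar*) to 0.32 (*Fdxr*) in sWAT. *Ak1* was called lower in BAT by DESeq2, by limma voom, without Ctrl library 5, without *Csn8* AKO library 1 and without *Csn8* AKO libraries 1 and 5. *Dgka* follows the lymphocyte-rich sWAT libraries, at 155 CPM in Ctrl library 1 and 182 CPM in *Csn8* AKO library 2 against 25.4 to 41.5 CPM in the other 6. Its log2 fold change in sWAT turns from 0.11 to -0.11 without those 2.

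**Figure D2:**
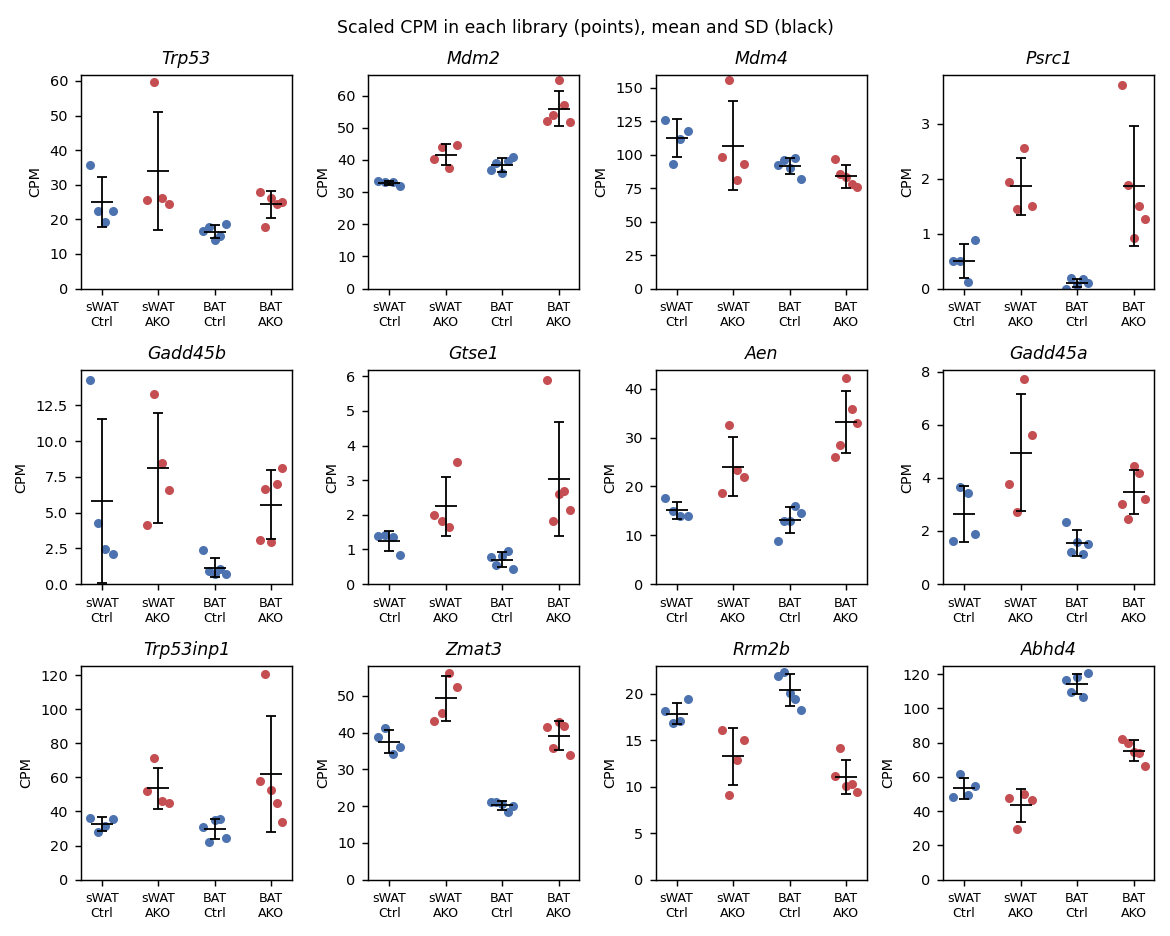
CPM (y axis) of the 11 members given in full and of *Abhd4* in each library, by tissue and genotype (x axis). Points are libraries, and black marks show the mean with 1 SD. For *Mdm2*, *Aen*, *Zmat3*, *Gtse1* and *Psrc1* the *Csn8* AKO points lie above the Ctrl points in both tissues, and for *Rrm2b* they lie below.

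Set side by side, the tissues gave these directions. The log2 fold change was positive in both tissues for 17 of 33 members (51.5%, against 36.3% of the 18288 genes tested in both), negative in both for 8 (against 5866 of the 18288) and of opposite sign for 8 (against 5791). These signs held in both tissues under every setting run for 12 of the 17, 4 of the 8 and 3 of the 8. Of the 17, *Dcxr*, *Epha2* and *Dgka* turn in sWAT, and *Btg2* and *Fdxr* in BAT, under 1 setting or more. The 17 include 2 of 3 core genes (*Trp53*, *Mdm2*) and *Ccng1*, *Gadd45a*, *Gadd45b*, *Gtse1*, *Psrc1*, *Aen*, *Trp53inp1* and *Zmat3*, and the 8 lower in both include *Rrm2b*, *Abhd4*, *Ddb2* and *Mdm4*. Within BAT *Csn8* AKO the 14 called-higher members did not peak in 1 mouse: library 1 was highest for 3 of them, library 2 for 1, library 3 for 4, library 4 for 3 and library 5 for 3. Library 5 was the lowest for 5 and library 2 for 5. In the test of whether the change differs between tissues, taken as BAT minus sWAT over 18 libraries, edgeR called 0 members higher, against 1.61% of the 22509 genes tested, and 0 lower, against 0.755%. Unadjusted p was under 0.05 for 9 members, against 3439 of the 22509 genes. DESeq2 called 3 (*Zmat3* and *Psrc1* higher, *Sesn1* lower), against 743 genes higher and 360 lower of 21489. Limma voom called 1 (*Sesn1*, lower), against 572 genes higher and 331 lower of 22509. Nearest in edgeR were *Sesn1* (-0.71, SE 0.19, adjusted p = 0.0558) and *Zmat3* (0.55, SE 0.15, adjusted p = 0.0559). With single libraries left out, *Sesn1* was called lower without sWAT Ctrl 1, sWAT *Csn8* AKO 4, BAT Ctrl 5 or BAT *Csn8* AKO 1, *Zmat3* higher without sWAT *Csn8* AKO 3, BAT *Csn8* AKO 2 or BAT *Csn8* AKO 5, and *Phlda3* higher without sWAT *Csn8* AKO 4. So the larger number of calls in BAT is no tested difference between the tissues, which also differ in depth, age and group size.

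Other known p53 targets, 27 genes outside the module, had more calls higher than lower in each tissue. In sWAT 25 were tested, 3 higher (against 2.30% of all genes tested) and 2 lower (against 3.00%). In BAT 26 were tested, 11 higher (against 16.0%) and 3 lower (against 15.8%). DESeq2 called 4 higher and 2 lower in sWAT, against 846 and 976 of 20788 genes, and limma voom 5 and 2, against 1077 and 1078 of 18843. In BAT DESeq2 called 11 higher and 3 lower, against 4104 and 3947 of 26822, and limma voom 12 and 3, against 4496 and 4507 of 22345. The arrest gene *Cdkn1a* was higher in both, at 11.7 against 56.3 CPM in sWAT (log2 fold change 2.26, SE 0.24, edgeR adjusted p = 0.00150) and 70.8 against 225 CPM in BAT (log2 fold change 1.67, SE 0.26, edgeR adjusted p = 0.000726). The death receptor *Eda2r* (1.68, SE 0.25, adjusted p = 0.00612) and the pore former *Bax* (0.73, SE 0.17, adjusted p = 0.0347) completed the higher genes in sWAT, with the phosphatase *Ptpn14* (-0.90, SE 0.19, adjusted p = 0.0287) and *Cdip1* (-0.65, SE 0.16, adjusted p = 0.0475) lower. Leaving out single libraries ends 3 of these 5 sWAT calls: *Bax* without any 1 of Ctrl 2 to 4 or *Csn8* AKO 1, 3 or 4 (adjusted p 0.0596 to 0.101), *Ptpn14* without Ctrl 2 to 4 or *Csn8* AKO 1 or 3 (0.0712 to 0.0830) and *Cdip1* without Ctrl 2 to 4 or *Csn8* AKO 1 to 4 (0.0538 to 0.130). With library size alone as scaling *Eda2r* (0.0618), *Bax* (0.683) and *Cdip1* (0.364) are not called, and without a filter *Bax* is not (0.0703). *Cdip1* is also not called with RLE scaling (0.0562) or without ribosomal RNA genes (0.0575).

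In BAT the stress cytokine *Gdf15* went from 0.196 to 9.95 CPM (log2 fold change 5.67, SE 0.71, edgeR adjusted p = 0.000275), the cytokine *Lif* from 0.0445 to 0.500 CPM (3.41, SE 0.45, adjusted p = 6.66e-05) and the noncoding RNA *Trp53cor1*, lincRNA-p21, from 0.403 to 1.58 CPM (2.00, SE 0.35, adjusted p = 0.000595). Ctrl levels of the first 2 were near 0, so their ratios rest on few Ctrl reads. Lower in BAT were the tetraspanin *Cd82* (-0.86, SE 0.14, adjusted p = 0.000434), *Cdip1* (-0.27, SE 0.08, adjusted p = 0.0188) and *Triap1* (-0.26, SE 0.09, adjusted p = 0.0340). The *Cdip1* call is lost without *Csn8* AKO library 3 or 5 (adjusted p 0.0603 at most), and that of *Triap1* without Ctrl 1, 2, 3 or 5 or *Csn8* AKO 1, 4 or 5 (0.0560 to 0.108), so that 1 gene is called lower without *Csn8* AKO library 5. Both calls are also lost without the muscle-bearing pair (0.0667 and 0.147), in 1 fit of all 4 groups (0.0810 and 0.150) and with library size alone (0.343 and 0.414), and that of *Triap1* without a filter (0.0774). The change differed between the tissues for *Gdf15* (BAT minus sWAT 4.87, SE 0.92, adjusted p = 0.00790; 0.212 by limma voom), *Lif* (2.94, SE 0.45, adjusted p = 0.00133) and *Ptpn14* (1.18, SE 0.26, adjusted p = 0.0154).

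Of 19 genes that act on the p53 protein, 18 were tested in each tissue. In sWAT edgeR called 0, with 3 at an unadjusted p under 0.05 (against 3838 of 18843 genes). DESeq2 called 1 higher there, against 846 of 20788 genes. Limma voom called 1 higher and 1 lower, against 1077 and 1078 of 18843. In BAT 4 of 18 were higher (against 16.0% of all genes tested), the deubiquitinase *Usp10* (0.51, SE 0.10, adjusted p = 0.00139) and the ribosomal proteins that bind Mdm2, *Rpl23* (0.29, SE 0.07, adjusted p = 0.00739), *Rpl5* (0.29, SE 0.07, adjusted p = 0.00448) and *Rpl11* (0.26, SE 0.07, adjusted p = 0.0149), and 1 lower (against 15.8%), the ligase *Rchy1* (-0.34, SE 0.10, adjusted p = 0.0183; adjusted p 0.05003 without *Csn8* AKO library 3, just past the threshold). DESeq2 called 4 higher and 2 lower in BAT, against 4104 and 3947 of 26822 genes, and limma voom 4 higher and 3 lower, against 4496 and 4507 of 22345. In 1 fit of all 4 groups the calls of *Rpl23*, *Rpl5* and *Rpl11* are lost (adjusted p 0.0952, 0.188 and 0.232). Without the muscle-bearing pair those of *Rpl11* (0.0656) and *Rchy1* (0.0845) are lost. With library size alone as scaling *Rchy1* is not called either (0.179). *Usp10* differed between tissues (0.79, SE 0.17, adjusted p = 0.0165; 0.122 with library size alone).

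DNA damage sensing and repair, 39 genes tested in both tissues, gave 0 calls in sWAT by edgeR (2 at an unadjusted p under 0.05, against 3838 of 18843 genes), DESeq2 or limma voom. BAT had 4 of 39 higher (against 16.0% of all genes tested) and 5 lower (against 15.8%). DESeq2 called 3 higher and 6 lower, against 4104 and 3947 of 26822 genes. Limma voom called 3 higher and 10 lower, against 4496 and 4507 of 22345. Higher by edgeR were *Palb2*, the partner of Brca2 (2.19, SE 0.19, adjusted p = 2.37e-06), *Bard1* (0.78, SE 0.29, adjusted p = 0.0499), the histone gene *H2ax*, listed as *H2afx* (0.62, SE 0.20, adjusted p = 0.0259), and *Rad23b* (0.30, SE 0.10, adjusted p = 0.0416). The lower ones include the end-joining genes *Xrcc4* (-0.71, SE 0.19, adjusted p = 0.00964) and *Prkdc* (-0.60, SE 0.11, adjusted p = 0.00104) and *Parp1* (-0.56, SE 0.10, adjusted p = 0.000614). *Palb2* also differed between tissues (1.87, SE 0.33, adjusted p = 0.00450). Single libraries decide some of these calls: *Bard1* is lost without any 1 of Ctrl 1 to 5 or *Csn8* AKO 1, 3 or 5 (adjusted p 0.0594 to 0.122), *Rad23b* without Ctrl 1 to 5 or *Csn8* AKO 3, 4 or 5 (0.0547 to 0.105) and *H2afx* without Ctrl 3 to 5 or *Csn8* AKO 4 or 5 (0.0606 to 0.0740). Without the muscle-bearing pair *Bard1* falls to 0.41 (adjusted p = 0.387) and *H2afx* to 0.53 (0.0808), neither called. In 1 fit of all 4 groups *Bard1* (0.178) and *Rad23b* (0.0732) are not called. Limma voom did not call *Bard1* (0.0555), nor did edgeR without a filter (0.0560), nor DESeq2 *Rad23b* (0.0516).

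Some cell type markers differed between genotypes beside the p53 genes, and others did not. For edgeR counts of markers here and below, 16.0% of genes tested were higher and 15.8% lower in BAT. In sWAT the shares were 2.30% and 3.00%. DESeq2 called 4104 genes higher and 3947 lower of 26822 in BAT, and 846 and 976 of 20788 in sWAT. Limma voom called 4496 and 4507 of 22345 in BAT, and 1077 and 1078 of 18843 in sWAT. In BAT 10 of 12 macrophage markers were higher, and their summed level was 178, 216, 152, 239 and 257 CPM in Ctrl and 497, 423, 524, 479.5 and 647 CPM in *Csn8* AKO, led by *Lyz2* (two-sided exact permutation p = 0.00794, 0.0258 after Benjamini-Hochberg adjustment). The groups do not overlap. Of the 12, 1 lay lower at an unadjusted p under 0.05, and DESeq2 called 1 lower beside 10 higher. sWAT had 10 of 12 higher as well, at 1042, 1098, 1322 and 1392 CPM in Ctrl and 3053, 1921, 2998 and 2131 CPM in *Csn8* AKO, led by *Lyz2* (two-sided exact permutation p = 0.0286, 0.0929 after Benjamini-Hochberg adjustment), and again no overlap. For 4 mice a group the smallest exact p is 0.0286, and for 5 it is 0.00794. Neutrophil markers were at 1.40, 1.41, 1.06, 1.97 and 1.53 CPM in Ctrl and 3.85, 2.48, 2.99, 4.16 and 3.17 CPM in *Csn8* AKO in BAT and 7.38, 5.57, 6.99 and 6.65 CPM in Ctrl and 15.0, 20.7, 12.3 and 13.3 CPM in *Csn8* AKO in sWAT, with *Csf3r* called higher in both and *Ly6g* at 0 in sWAT. *Csf3r* was also the most abundant of the 5.

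Proliferation markers, which share cell cycle roles with *Psrc1* and *Gtse1*, were higher for 10 of 12 genes in BAT (against 16.0% of all genes tested), with sums of 32.1, 28.1, 24.8, 25.3 and 14.9 CPM in Ctrl and 83.5, 34.3, 43.2, 35.5 and 77.9 CPM in *Csn8* AKO (two-sided exact permutation p = 0.00794, 0.0258 after Benjamini-Hochberg adjustment), led by *Mki67*. Limma voom called 7 of the 12. The *Csn8* AKO libraries 1 and 5, the pair with muscle RNA, are the highest, and each *Csn8* AKO library is above each Ctrl library. In sWAT 1 of 12 was called higher (*Bub1*), with DESeq2 at 5 and limma voom at 7, and the sums were 59.6, 39.9, 32.8 and 36.1 CPM in Ctrl and 78.1, 119.9, 76.6 and 46.3 CPM in *Csn8* AKO (two-sided exact permutation p = 0.0571, 0.124 after Benjamini-Hochberg adjustment), where only *Csn8* AKO library 4 falls within the Ctrl range. Fibroblast and progenitor markers were higher for 5 of 5 genes in BAT (against 16.0%), at 748, 645, 573, 496 and 451 CPM in Ctrl and 1395, 1054, 1502, 1340.4 and 2113 CPM in *Csn8* AKO, mostly *Col1a1* (two-sided exact permutation p = 0.00794, 0.0258 after Benjamini-Hochberg adjustment). sWAT had 0 of 5 called by edgeR, 4 at an unadjusted p under 0.05, 1 by DESeq2 and 2 by limma voom, at 3382, 3959, 3964 and 3979 CPM in Ctrl and 5952, 3766, 7143 and 5538 CPM in *Csn8* AKO.

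Adipocyte markers were lower for 4 of 9 genes in sWAT (against 3.00% of all genes tested), with sums of 18864, 23426, 24213 and 24349 CPM in Ctrl and 12136, 6192, 12490.2 and 14469 CPM in *Csn8* AKO (two-sided exact permutation p = 0.0286, 0.0929 after Benjamini-Hochberg adjustment), led by *Cfd*. In BAT 2 of 9 were lower (against 15.8%), and 4 of 9 had a positive log2 fold change. The BAT sums were 13585, 12674, 14554, 14713 and 13681 CPM in Ctrl and 11934, 14154, 12434, 11961 and 13302 CPM in *Csn8* AKO (two-sided exact permutation p = 0.0952, 0.192 after Benjamini-Hochberg adjustment). The most abundant in BAT, *Fabp4*, had means of 4305 CPM in Ctrl and 4781 CPM in *Csn8* AKO. sWAT shows every *Csn8* AKO library below every Ctrl library, while BAT groups overlap. Brown adipocyte markers gave 2 of 6 lower in sWAT, at 72.9, 147, 70.3 and 91.9 CPM in Ctrl and 27.6, 11.4, 15.3 and 24.4 CPM in *Csn8* AKO, with *Cox8b* the most abundant, and 1 higher (*Elovl3*) and 1 lower (*Cox7a1*) of 7 in BAT, at 4160.5, 4299, 6351, 5854 and 7372 CPM in Ctrl and 4294, 8954, 7469.6, 6051 and 6569 CPM in *Csn8* AKO, with *Ucp1* the most abundant. DESeq2 and limma voom each called 1 higher and 3 lower of the 7 in BAT. In sWAT DESeq2 called 3 lower, and limma voom 3 lower and 1 higher. For the adipocyte markers in sWAT DESeq2 called 5 lower and limma voom 6. The most abundant brown adipocyte marker was *Ucp1* in BAT and *Cox8b* in sWAT.

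Immediate early genes, which handling of tissue can raise, were higher for 4 of 10 in BAT (*Fos*, *Fosb*, *Ier2*, *Atf3*, against 16.0% of all genes tested, and 3 by limma voom), with sums of 380.1, 402, 185, 479 and 805 CPM in Ctrl and 732, 221, 503, 525 and 1415 CPM in *Csn8* AKO that overlap, led by *Nr4a1*. In sWAT 0 of 10 passed edgeR, 3 had an unadjusted p under 0.05, DESeq2 called 1 and limma voom 2, and the sums were 317, 665, 289.7 and 187 CPM in Ctrl and 447, 502, 439 and 511 CPM in *Csn8* AKO, led by *Zfp36*. Lymphocyte markers in BAT were 2 higher and 1 lower of 13 (against 16.0% and 15.8% of all genes tested), at 11.1, 9.52, 7.47, 8.21 and 8.76 CPM in Ctrl and 10.3, 7.02, 8.94, 8.52 and 10.9 CPM in *Csn8* AKO, led by *Cd79a*. In sWAT 0 of the 13 were called by edgeR, by limma voom or at an unadjusted p under 0.05, and DESeq2 gave none an adjusted p, while *Lck* was the most abundant.

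Muscle markers in sWAT summed to 169, 551, 2713 and 324 CPM in Ctrl and 104, 43.0, 347 and 1625 CPM in *Csn8* AKO, led by *Myh4*, with 0 of 7 called by edgeR, DESeq2, limma voom or at an unadjusted p under 0.05. In BAT edgeR called 2 of 3 tested higher, DESeq2 7 of 8 and limma voom 0 of 3, led by *Myh4*, with the reads from *Csn8* AKO libraries 1 and 5. Endothelial markers stood at 405, 428, 403 and 444 CPM in Ctrl and 248, 395, 323 and 403 CPM in *Csn8* AKO in sWAT, with 0 of 4 called by edgeR (1 at an unadjusted p under 0.05, 1 by DESeq2, 0 by limma voom), and at 670.1, 736, 865, 907 and 871 CPM in Ctrl and 847, 709, 911, 984 and 952 CPM in *Csn8* AKO in BAT, with *Pecam1* higher and *Cdh5* leading in both. Epithelial markers were low outside sWAT Ctrl library 4: 2.62, 1.57, 2.43 and 35.2 CPM in Ctrl and 2.59, 4.03, 2.48 and 2.32 CPM in *Csn8* AKO in sWAT, where 2 of 8 were tested and 0 called by any of the 3 tools (1 at an unadjusted p under 0.05), led by *Dsp*, and 0.439, 0.288, 1.24, 0.148 and 0.433 CPM in Ctrl and 0.405, 0.434, 0.687, 0.766 and 0.969 CPM in *Csn8* AKO in BAT, where edgeR tested none, led by *Krt19*. The part of these cell types and of tissue handling in the p53 results was not tested.

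**Figure D3:**
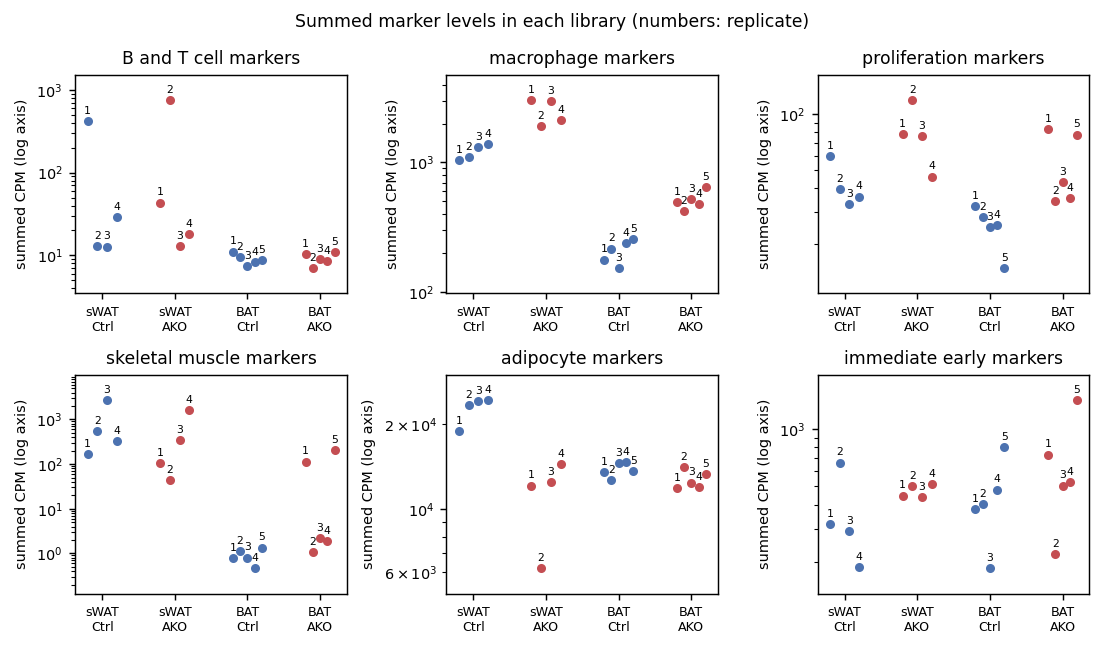
Summed CPM of 6 marker lists (y axis, log scale) in each library, by tissue and genotype (x axis), with replicate numbers beside the points. sWAT Ctrl library 1 and sWAT *Csn8* AKO library 2 stand out for B and T cell markers, at 418 and 759 CPM, and BAT *Csn8* AKO libraries 1 and 5 for skeletal muscle, at 114 and 207 CPM.

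The promoters of the members were searched for the letters p53 binds. RefSeq promoters on GRCm38.p6, from 250 bases before to 50 after a gene's start, were found for 27 of 33 members. *Trp53inp1*, *Zmat3*, *Perp*, *Ddb2*, *Xpc* and *Rrm2b* are not in the table. The p53 response element decamer was searched on both strands (it reads the same on each), with no mismatch allowed. It was present in 12 of 41 member promoters (29.3%), those of *Abhd4*, *Aen* (2 overlapping windows with the same decamer), *Ccng1*, *Ei24*, *Gadd45a*, *Gtse1*, *Mdm2*, *Polk*, *Rps27l*, *Sesn1* and *Trp53*, and in 2745 of all 32851 promoters (8.36%). The members were listed as genes of the p53 pathway, so a higher share than over all promoters is not independent of that choice. The holders include members that were higher in BAT, *Abhd4*, which was lower, and *Ei24*, *Polk* and *Sesn1*, which edgeR did not call. Among the other targets 5 of 37 promoters held it (13.5%), among the regulators 3 of 24 (12.5%), and among the repair genes 0 of 31. A full element, with 2 exact decamers at most 13 bases apart, was in 0 member promoters, in that of *Cdkn1a* and in 24 of all promoters (0.0731%). Elements with a mismatch were not searched for. A match describes these letters only, and no match says only that they are not in this window.

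Shown are the promoters of both core genes with the decamer, of 3 members called higher in BAT whose groups did not overlap, and of *Cdkn1a* as the 1 with a full element, each 5′ to 3′ on its gene's strand with the decamers in capitals. They are *Trp53* (chr11:69580109-69580408, plus strand), *Mdm2* (chr10:117710709-117711008, minus strand), *Aen* (chr7:78895677-78895976, plus strand), *Gadd45a* (chr6:67037358-67037657, minus strand), *Gtse1* (chr15:85859696-85859995, plus strand) and *Cdkn1a* (chr17:29090729-29091028, plus strand).
Trp53: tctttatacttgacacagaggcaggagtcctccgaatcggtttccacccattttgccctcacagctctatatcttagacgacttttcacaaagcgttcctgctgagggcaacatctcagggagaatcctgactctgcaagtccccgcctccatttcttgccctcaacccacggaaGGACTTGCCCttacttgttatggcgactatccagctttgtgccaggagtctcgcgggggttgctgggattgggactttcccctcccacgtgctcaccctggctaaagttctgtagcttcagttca
Mdm2: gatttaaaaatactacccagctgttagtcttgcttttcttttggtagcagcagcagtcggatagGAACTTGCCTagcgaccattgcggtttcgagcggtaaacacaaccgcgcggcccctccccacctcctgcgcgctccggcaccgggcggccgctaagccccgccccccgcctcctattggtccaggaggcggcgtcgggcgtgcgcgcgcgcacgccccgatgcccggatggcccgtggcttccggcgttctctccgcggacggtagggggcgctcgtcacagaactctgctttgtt
Aen: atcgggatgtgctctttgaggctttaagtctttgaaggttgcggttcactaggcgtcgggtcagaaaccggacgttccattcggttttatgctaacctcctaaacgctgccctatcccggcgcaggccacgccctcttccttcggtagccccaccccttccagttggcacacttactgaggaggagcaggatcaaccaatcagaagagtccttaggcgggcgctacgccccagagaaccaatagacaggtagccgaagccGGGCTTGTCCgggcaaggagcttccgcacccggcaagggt
Gadd45a: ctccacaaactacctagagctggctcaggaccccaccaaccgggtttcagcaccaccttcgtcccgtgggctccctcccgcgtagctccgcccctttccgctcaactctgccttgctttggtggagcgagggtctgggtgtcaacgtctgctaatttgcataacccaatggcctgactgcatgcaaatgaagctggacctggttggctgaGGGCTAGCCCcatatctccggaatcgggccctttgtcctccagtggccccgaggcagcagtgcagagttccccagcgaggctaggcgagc
Gtse1: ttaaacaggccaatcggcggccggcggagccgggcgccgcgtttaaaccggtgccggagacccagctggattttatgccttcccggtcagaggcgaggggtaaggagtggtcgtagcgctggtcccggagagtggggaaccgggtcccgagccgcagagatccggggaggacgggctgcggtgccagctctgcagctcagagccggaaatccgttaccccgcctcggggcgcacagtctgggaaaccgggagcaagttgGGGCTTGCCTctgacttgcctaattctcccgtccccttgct
Cdkn1a: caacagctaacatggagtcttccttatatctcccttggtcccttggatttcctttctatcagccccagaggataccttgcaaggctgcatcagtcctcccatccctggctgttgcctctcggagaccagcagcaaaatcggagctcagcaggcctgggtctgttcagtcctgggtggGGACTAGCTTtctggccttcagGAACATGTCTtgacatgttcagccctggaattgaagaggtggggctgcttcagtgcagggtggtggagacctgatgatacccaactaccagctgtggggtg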

How the data were processed

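Bulk RNA-seq count tables of 18 libraries were used: 4 Ctrl and 4 *Csn8* AKO from sWAT, 5 and 5 from BAT. The authors aligned reads to GRCm38 with STAR 2.7.9a, per the submitters' processing notes, and counted uniquely aligned, unambiguous reads per Ensembl gene, and these counts are the deposited values used here. The authors also deposited CPM, FPKM and TPM columns, which were not used. CPM printed here was computed from the deposited counts with edgeR 4.0.16 (TMM factors, R 4.3.3).

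Genotypes were compared within each tissue by edgeR's quasi-likelihood F test over all genes kept by filterByExpr (minimum count 10, minimum total 15), with Benjamini-Hochberg adjustment, and called at adjusted p under 0.05, also under a fold rule that asks for 1 or more log2 units in size. The interaction used all 18 libraries. SE is the absolute log2 fold change over the square root of F. Marker sums and library measures have exact permutation tests (two-sided) of the difference in means, adjusted within a tissue. Named in full are *Trp53*, *Mdm2* and *Mdm4* and the 8 called members of largest absolute log2 fold change in each tissue. From each other pathway list (other p53 targets, p53 protein regulators, DNA damage sensing and repair) at most 4 called genes per direction and tissue are named, and marker lists are given by counts and sums. Alternatives were other scaling and filters, DESeq2 1.42.0, limma voom 3.58.1, 1 fit of all 4 groups, a replicate block, ribosomal RNA genes left out, a lymphocyte covariate and each library left out in turn. Settings without the libraries that stand apart, and other settings for the marker sums, were chosen after seeing the data. The fitting code was tested on simulated data. The members and lists were chosen with earlier results of these data known.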

Additional observations from a re-analysis of the deposited data

Results flagged for a closer look

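Within groups of 4 or 5 libraries, a library was picked out when its gap to the nearest other was large against the range of its group (Dixon's 95% critical value). This met 21 of 184 groups, and chance picks out about 1 in 20. Among the members in sWAT these were *Trp53* in *Csn8* AKO library 2 at 59.6 CPM, *Mdm2* in Ctrl library 4 at 31.9 CPM, *Perp* in Ctrl library 4 at 4.83 CPM, *Ddb2* in *Csn8* AKO library 2 at 8.92 CPM, *Xpc* in *Csn8* AKO library 4 at 41.1 CPM, *Gtse1* in Ctrl library 4 at 0.831 CPM and *Rps27l* in Ctrl library 2 at 20.002 CPM. *Dgka* stood apart in both lymphocyte-rich sWAT libraries, at 154.9 CPM in Ctrl library 1 and 182.3 CPM in *Csn8* AKO library 2. In BAT they were *Trp53inp1* in *Csn8* AKO library 2 at 120.6 CPM, *Gadd45b* in Ctrl library 1 at 2.35 CPM and *Gtse1* in *Csn8* AKO library 1 at 5.90 CPM.

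Among library measures, BAT *Csn8* AKO library 2 had 15.1% of its counts on ribosomal RNA genes, more than the rest of its group. Shares in sWAT, where none was picked out this way, reached 19.8% in Ctrl and 47.8% in *Csn8* AKO. Summed B and T cell markers were high in sWAT Ctrl library 1 at 417.8 CPM and sWAT *Csn8* AKO library 2 at 759.4 CPM, and Ctrl library 1 was also low for adipocyte markers at 18863.7 CPM and for fibroblast and progenitor markers at 3382.3 CPM. Skeletal muscle markers were high in sWAT Ctrl library 3 at 2712.9 CPM. Epithelial markers were high in sWAT Ctrl library 4 at 35.2 CPM, in sWAT *Csn8* AKO library 2 at 4.03 CPM and in BAT Ctrl library 3 at 1.24 CPM.

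The effect of genotype differed between the tissues, by the interaction test over 18 libraries, for 5 genes of the other pathway lists: *Gdf15* (4.87 on the log2 scale, BAT minus sWAT), *Lif* (2.94), *Palb2* (1.87), *Ptpn14* (1.18) and *Usp10* (0.79). No member passed that test in edgeR, with 9 at an unadjusted p under 0.05 (against 3439 of 22509 genes). DESeq2 called 3 members, against 743 genes higher and 360 lower of 21489, and limma voom 1, against 572 and 331 of 22509. Tissue and age cannot be told apart here.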

How the results depend on the processing

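The number of members called higher in sWAT, 1 as reported, was 0 with the fold rule, 0 with library size alone as scaling, 2 without a filter, 2 with a filter over 1 CPM, 3 by DESeq2, 5 by limma voom, 4 in 1 fit of all 4 groups, 2 without ribosomal RNA genes, 4 with the lymphocyte covariate and 4 without the lymphocyte-rich pair (chosen after seeing the data), and 0 to 4 with 1 library left out. Over all genes, the higher calls in sWAT were 434 as reported, 106 with library size alone, 428 without a filter and 497 with the filter over 1 CPM. They were 846 by DESeq2, 1077 by limma voom and 1044 in 1 fit of all 4 groups. Without ribosomal RNA genes they were 484, with the lymphocyte covariate 1047 and without the lymphocyte-rich pair 993. The number of members called lower in sWAT was 0 under each setting run. In BAT, 14 higher became 6 with the fold rule, 10 in 1 fit of all 4 groups, 12 without a filter, 12 without the muscle-bearing pair, 15 with library size alone and 16 by limma voom, and 11 to 14 with 1 library left out. The 2 lower became 0 with the fold rule, 3 by DESeq2, 5 by limma voom and 4 without the muscle-bearing pair, and 2 to 5 with 1 library left out. Over all genes, the higher calls in BAT were 3585 as reported, 2583 in 1 fit of all 4 groups and 3267 without a filter. They were 2560 without the muscle-bearing pair, 4183 with library size alone and 4496 by limma voom. The lower calls were 3536 as reported, 3947 by DESeq2, 4507 by limma voom and 2743 without the muscle-bearing pair. Interaction calls, 0 as reported, were 2 with library size alone, 2 with the filter over 1 CPM, 3 by DESeq2 and 1 by limma voom, and 0 to 2 with 1 library left out. Over all genes, they were 362 higher and 170 lower as reported, and 494 and 39 with library size alone. With the filter over 1 CPM they were 385 and 197, by DESeq2 743 and 360, and by limma voom 572 and 331. The cause of these shifts was not tested. Other p53 targets ranged over all settings from 1 to 6 (3 as reported) higher and 0 to 2 (2) lower in sWAT, and from 6 to 12 (11) higher and 0 to 3 (3) lower in BAT.

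With the replicate number as a replicate block, sWAT had 0 members higher and 0 lower, BAT 14 higher (*Plk3* in place of *Trp53inp1*) and 3 lower (with *Ak1*), and the interaction 0. Over all genes the block gave 134 higher and 165 lower in sWAT, and 3353 and 3423 in BAT. In the other pathway lists it ended the sWAT calls of *Bax* (edgeR adjusted p = 0.119), *Ptpn14* (0.0669) and *Cdip1* (0.132). In BAT it ended those of *Triap1* (0.0531), *Bard1* (0.118) and *H2afx* (0.0730). Deviations of same-numbered libraries correlated at -0.13, -0.39, 0.22 and -0.11 in sWAT and 0.10, -0.10, -0.01, -0.05 and 0.09 in BAT, and only BAT 1 and 5 correlated best with their own number, so the numbers were not taken as pairs.

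For 17 members (the core genes and those called), 387 of 437 fold changes kept direction and side of the threshold, and *Mdm4* in sWAT turned to 0.031 without *Csn8* AKO library 3 (range -0.31 to 0.031). Over all 33 members, the signs in both tissues held under every setting run for 12 of the 17 higher in both, 4 of the 8 lower in both and 3 of the 8 of opposite sign. Marker sums that turned were B and T cells in sWAT (log2 ratio 0.82, range -2.25 to 3.51 with 1 library left out), muscle in sWAT (-0.83, -2.51 to 0.61), epithelium in sWAT (-1.87, -2.23 to 0.37), B and T cells in BAT (0.02, -0.054 to 0.10) and adipocytes in BAT with library size alone (0.0064 against -0.12). Library size alone also moved the BAT median of all genes to 0.14 and that of the interaction to 0.21. Limits: sWAT has 4 mice a group and shallower libraries, *Psrc1* and *Perp* rest on few reads, strand use in counting is not stated, and the targeted gene's count does not isolate the deleted exons.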
